A study of Mus musculus with 19 samples.

Results

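A set of 10 genes of lipoprotein handling was followed in RNAseq data of sorted cells. The genes were chosen by symbol, as *Apoe*, *Clu*, *Apod*, *Apoc1*, *Abca1*, *Abcg1*, *Lcat*, *Scarb1*, *Vldlr* and *Lrp8*. All 10 were found, 1 entry each, among the 60567 genes listed. Cells came from hippocampi of 9 month-old male C57bl6 mice, either WT or transgenic for mutated human APP, expressed under a prion protein promoter (APP mice). All mice had received, in the hippocampus, adeno-associated vectors (AAV) with an astrocyte promoter (gfaABC1D). The vector encoded GFP in WT-GFP and APP-GFP mice, and a vector for SOCS3, an inhibitor of the JAK2-STAT3 pathway, was added in APP-SOCS3 mice at the same total titer. FACS gave 7 samples of GFP+ astrocytes from WT-GFP mice, 4 from APP-GFP mice and 5 from APP-SOCS3 mice, and 3 samples of GFP- cells from WT-GFP mice. The GFP- cells are a mixture that also holds astrocytes the vector did not reach. SOCS3 in WT mice and GFP- cells of APP mice were not analysed here.

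In the brain, astrocytes are the main source of lipoprotein particles, small discs of phospholipid and cholesterol around apolipoproteins such as APOE and clusterin (*Clu*). The exporters ABCA1 and ABCG1 load lipid onto the particles, LCAT esterifies their cholesterol, and receptors of the LDL receptor family (VLDLR and APOER2, the product of *Lrp8*) and the scavenger receptor SR-B1 (*Scarb1*) bind them on other cells. Variants of the human *APOE* and *CLU* genes change the risk of Alzheimer's disease, and both proteins are found in amyloid plaques.

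Reads on genes ranged from 19331876 to 32621917 per sample. The 15 astrocyte markers summed to 766549 to 1252195 in GFP+ samples and 32523 to 93622 in GFP- samples, and *Aqp4*, the astrocyte water channel, was at 4872 ± 1991 in WT-GFP GFP+ cells (SD, n = 7) and 554 ± 336 in GFP- cells (SD, n = 3). *Socs3*, whose reads from the vector and from the mouse gene are not separated, was at 13296 to 37750 in the 5 APP-SOCS3 samples, above all APP-GFP (438 to 1639) and WT-GFP astrocytes (458 to 1208), and at 10320 to 17689 in GFP- cells. *App* was at 3663 to 11151 in APP-GFP, 2633 to 6011 in APP-SOCS3 and 1735 to 5624 in WT-GFP astrocytes. APP-SOCS3 and WT-GFP astrocytes did not differ in *App* beyond their spread (log2 fold change -0.18, 95% CI -0.81 to 0.45), so the level of *App* did not check the genotype of the APP-SOCS3 samples, and whether reads of the transgene were counted on this gene is not known. Among GFP+ samples, 4 stood apart with fewer than 20000 genes detected, against 21602 to 26757 in the others. They are WT-GFP replicates 1, 2 and 3 and APP-GFP replicate 2. The 3 GFP- samples had 30807 to 31897 genes detected, more than any GFP+ sample. The part of this difference in the lower levels of GFP+ cells was not tested. Levels below are normalized mRNA levels, the reads on a gene divided by the size factor of the sample. They are not divided by gene length, so no level is compared between genes.

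Upstream sequences are shown for *Apoe* and *Lcat*, which were higher in GFP+ cells, and for *Apod*, which was lower in APP-SOCS3 astrocytes. They are the 250 bases before the start site from RefSeq (GRCm38.p6), 5' to 3' on the strand of the gene, and the start site is that of the deposited annotation in each case. Capitals mark a match to 1 of 6 motifs, searched on both strands: TTCNNNGAA (STAT), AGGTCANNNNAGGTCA (the direct repeat bound by LXR), GGGCGG (the SP1 box), TATAAA (the TATA box), CCAAT (the CCAAT box) and CACGTG (an E-box).
Apoe, chr7:19699189-19699438, minus strand: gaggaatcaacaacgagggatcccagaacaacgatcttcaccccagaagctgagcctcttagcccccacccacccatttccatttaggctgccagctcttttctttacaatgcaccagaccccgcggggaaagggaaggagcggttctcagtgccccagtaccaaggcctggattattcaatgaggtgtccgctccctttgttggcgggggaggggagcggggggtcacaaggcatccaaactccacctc
Lcat, chr8:105943403-105943652, minus strand: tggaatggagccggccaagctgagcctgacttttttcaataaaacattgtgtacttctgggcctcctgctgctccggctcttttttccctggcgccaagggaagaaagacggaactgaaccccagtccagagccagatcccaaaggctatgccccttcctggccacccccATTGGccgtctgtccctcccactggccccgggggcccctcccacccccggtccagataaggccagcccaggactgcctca
Apod, chr16:31314809-31315058, minus strand: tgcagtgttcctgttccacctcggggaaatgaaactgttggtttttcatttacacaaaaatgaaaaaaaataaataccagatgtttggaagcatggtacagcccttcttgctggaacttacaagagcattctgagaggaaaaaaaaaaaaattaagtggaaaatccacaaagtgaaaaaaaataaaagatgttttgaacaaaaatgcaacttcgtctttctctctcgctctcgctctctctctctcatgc
The sole match in these 3 windows was a CCAAT box of *Lcat*, read on the opposite strand 80 to 76 bases before the start. Of the 32851 upstream windows of this length in the RefSeq table, 33.8% held CCAAT, 7.02% the STAT letters, 0.0152% the LXR repeat, 32.7% the SP1 box, 12.4% the TATA box and 6.02% the E-box. For *Apoe*, *Lcat*, *Apod*, *Abca1*, *Vldlr* and *Lrp8*, the 6 genes with a RefSeq entry, the window nearest the deposited start site was searched. The STAT letters were in none of these windows, which says nothing on STAT3 binding. The start site used for *Lrp8* was 626 bases from the deposited one. *Apoe*, *Vldlr* and *Lrp8* had 3, 2 and 3 windows listed, and their other windows were not searched. *Clu*, *Apoc1*, *Abcg1* and *Scarb1* had no entry.

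Whether these genes belong to astrocytes was addressed by comparing GFP+ with GFP- cells of WT-GFP mice. A gene was called when its unadjusted *p* from limma was at most 0.05 with a fold change of at least 1.5 on log2(level + 1). Of the 10 genes, 4 were higher in GFP+ cells (*Apoe*, *Clu*, *Apoc1*, *Lcat*), 4 were lower (*Apod*, *Abcg1*, *Scarb1*, *Lrp8*) and 2 were not called (*Abca1*, *Vldlr*). Of all 26709 genes tested, 42.8% were called, 9.25% as higher and 33.5% as lower. With an adjusted *p* under 0.05 the calls were 7 of the 10 genes and 31.9% of all genes. All GFP+ samples were above all GFP- samples for 4 of the 10 genes and below them for 4, against 7.57% and 27.2% of all genes. Over all genes the median log2 fold change was -1.31, against -0.51 for the 10 genes. That median was -0.37 with edgeR and -0.67 with DESeq2. In GFP+ and GFP- cells of bulk samples, fewer cells of a type and less RNA per cell cannot be told apart.

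*Apoe* encodes the main apolipoprotein of brain particles and lies on mm10 chr7:19696109-19699188, minus strand. Its level in WT-GFP GFP+ cells was 712486 at the lowest, 1003101 at the median and 1806557 at the highest. In GFP- replicates 1, 2 and 3 it was 129296, 87988 and 55248. All GFP+ samples were above all GFP- samples. *Apoe* had a log2 fold change of 3.58 (95% CI 2.89 to 4.26), an 11.9-fold higher level, with an adjusted *p* of 1.12e-05 in limma and an exact permutation *p* of 0.00833, the smallest this design allows.

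*Clu*, on chr14:65968483-65981548 (plus strand), encodes clusterin, a chaperone carried on the same kind of particle. It ranged from 316390 to 492681, with a median of 393359, in WT-GFP GFP+ cells, and was at 50267, 39829 and 24458 in the GFP- replicates. The 2 groups did not overlap, and the log2 fold change was 3.45 (95% CI 3.00 to 3.91, adjusted *p* = 6.38e-06, limma). *Apoe* and *Clu* fell in the same order over the GFP- replicates, which was also the order of the summed astrocyte markers (93622, 47916 and 32523). The sums of border macrophage, fibroblast, and choroid plexus and ependymal markers fell in that order too. Those of microglial, endothelial and mural markers rose, and the other lists followed neither order. Which cells gave the *Apoe* and *Clu* of GFP- samples was not tested. Within a sample, *Apoe* per 100 units of *Clu* was 221 to 257 in GFP- cells. In GFP+ cells it was 219 to 367 (WT-GFP), 206 to 282 (APP-GFP) and 193 to 251 (APP-SOCS3), so the GFP- range lay within that of GFP+ cells. This did not hold for *Lcat*. *Apoe* per 100 units of *Lcat* was 10342 to 21749 in GFP- cells and 6568 to 10543 in GFP+ cells of WT-GFP mice, ranges that overlap only at their ends.

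**Figure D1:**
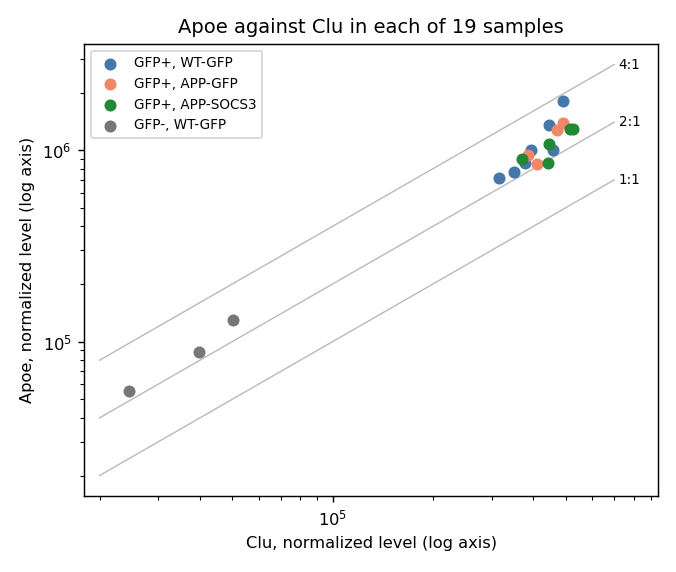
Normalized level of *Apoe* against that of *Clu* in each of the 19 samples, on log axes, with 1 point per sample coloured by group and grey lines where *Apoe* is 1, 2 and 4 times *Clu*. The 3 GFP- samples lie at lower levels of both genes, at 221 to 257 units of *Apoe* per 100 of *Clu*, within the 193 to 367 of the 16 GFP+ samples.

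*Apoc1* encodes a small apolipoprotein that hinders receptor binding and lipid transfer, and lies next to *Apoe*, at chr7:19689480-19692659 on the same strand. Its level was low, with 63.2, 140 and 455 as the lowest, median and highest in WT-GFP GFP+ cells and 33.8, 11.3 and 10.6 in the GFP- replicates. No GFP+ sample was as low as a GFP- sample. *Apoc1* had a log2 fold change of 3.24 (95% CI 1.63 to 4.85, adjusted *p* = 0.00659, limma). Per 100 units of *Apoe*, *Apoc1* was at 0.0129 to 0.0261 in GFP- cells and 0.00887 to 0.0291 in GFP+ cells of WT-GFP mice, and these ranges overlap. The next entry along the chromosome, shared by *Apoc4* and *Apoc2* and named here after its values were seen, was at a mean of 2.67 in GFP+ and 38.5 in GFP- cells.

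*Lcat* encodes the enzyme that esterifies cholesterol on particles (chr8:105939552-105943402, minus strand). In WT-GFP GFP+ cells its level was 9300 at the lowest, 10768 at the median and 17136 at the highest, and in the GFP- replicates it was 1250, 405 and 337. The groups did not overlap. *Lcat* had the largest positive change of the 10 genes, with a log2 fold change of 4.42 (95% CI 3.62 to 5.21, adjusted *p* = 8.93e-06, limma), a 21.4-fold higher level. An antisense gene of the GENCODE annotation, *Gm16156*, spans *Lcat*, and the strand used in counting is not stated, so reads of the 2 cannot be told apart.

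**Figure D2:**
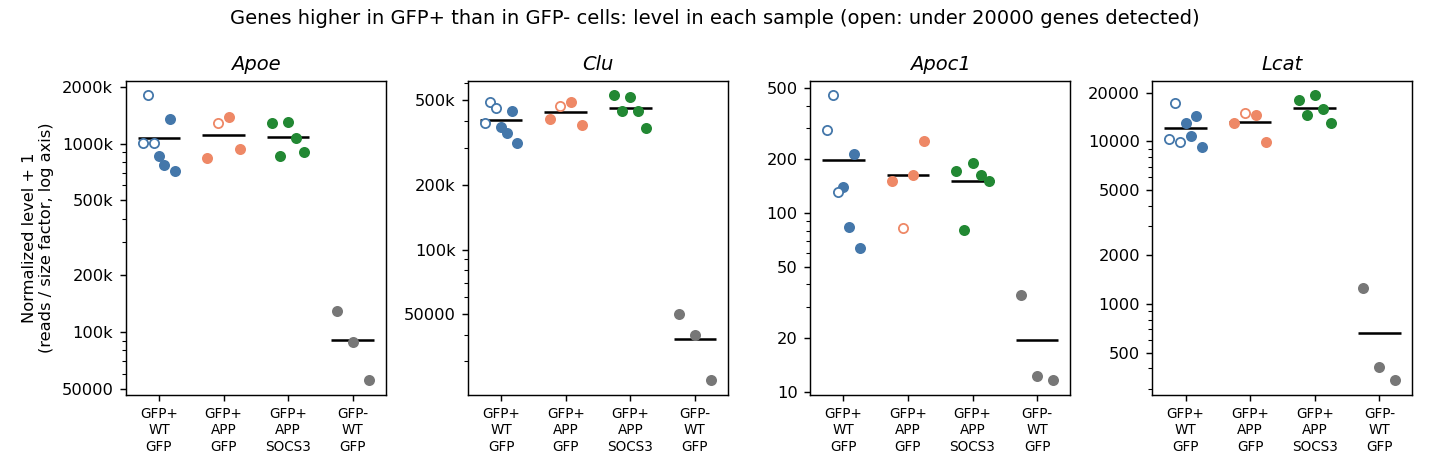
Normalized level + 1 (log axis) of *Apoe*, *Clu*, *Apoc1* and *Lcat* in each sample by group, with black lines for group means and open points for the 4 samples with fewer than 20000 genes detected. In each panel the 3 GFP- samples lie below all 16 GFP+ samples, and the 3 GFP+ groups overlap.

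The lower genes included *Apod*, an apolipoprotein of the lipocalin family known from oligodendrocytes, fibroblasts and mural cells (chr16:31296211-31314808, minus strand). Its level was 868 at the lowest, 2889 at the median and 5992 at the highest in WT-GFP GFP+ cells, and 10405, 11684 and 9233 in the GFP- replicates. The groups did not overlap, and *Apod* was 3.94-fold lower in GFP+ cells (log2 fold change -1.98, 95% CI -3.00 to -0.95, adjusted *p* = 0.00835, limma).

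*Scarb1*, encoding SR-B1, the receptor that takes up cholesteryl ester from HDL (chr5:125277089-125341094, minus strand), had 310, 561 and 945 as the lowest, median and highest in WT-GFP GFP+ cells. It was 3828, 3558 and 4279 in the GFP- replicates, above all GFP+ samples. *Scarb1* had a log2 fold change of -2.87 (95% CI -3.64 to -2.11, adjusted *p* = 0.000105, limma). *Abcg1*, which exports sterol to formed particles (chr17:31057694-31117984, plus strand), was listed at 0 in 4 of the 7 WT-GFP GFP+ samples and reached 25.6 in the highest, while the GFP- replicates had 332, 553 and 605. The mean in GFP- cells was 75.9 times that in GFP+ cells, and the log2 fold change of -7.40 (95% CI -10.25 to -4.55, adjusted *p* = 0.00144, limma) depends on the pseudocount of 1.

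*Lrp8* encodes APOER2, a receptor for APOE and reelin (chr4:107802259-107876840, plus strand). Its level was 840, 1228 and 2245 (lowest, median and highest) in WT-GFP GFP+ cells and 2130, 2194 and 2616 in the GFP- replicates, and 1 GFP+ sample (replicate 3) lay inside the GFP- range. Its log2 fold change of -0.82 (95% CI -1.48 to -0.17) had an adjusted *p* of 0.0552 in limma and an exact permutation *p* of 0.0417. The median over all genes in limma was -1.31, a larger drop than that of *Lrp8*. The call was lost without GFP- replicate 3 (-0.73), with edgeR (-0.49) and with the replicate number as a block (-0.85). Antisense genes *Lrp8os1* and *Lrp8os2* overlap it, with mean levels of 0.105 and 10.6 over the 19 samples.

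*Vldlr*, the VLDL receptor, also binds APOE and reelin (chr19:27216483-27254231, plus strand). It was listed at 0 in WT-GFP replicates 1 and 2, at 80.0 in replicate 3 and at 366 to 525 in replicates 4 to 7, and was 1068, 751 and 710 in the GFP- replicates. The low values were thus in the 3 WT-GFP samples with fewer than 20000 genes detected. Over all samples the log2 fold change was -3.78 (95% CI -8.52 to 0.96, exact permutation *p* = 0.075) although the groups did not overlap. Without those 3 samples it was -0.93 and called, and 9 of the 10 genes were then called in this comparison. Of all 26661 genes tested in that fit, 12360 were called, 3008 as higher and 9352 as lower. The median log2 fold change over all genes was then -0.80, close to that of *Vldlr*.

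*Abca1*, the exporter that starts particle assembly (chr4:53030788-53159896, minus strand), had 553, 3090 and 5232 as the lowest, median and highest in WT-GFP GFP+ cells and 2968, 1952 and 3110 in the GFP- replicates. The GFP- values lay inside the GFP+ range, and the log2 fold change was -0.20 with a 95% CI of -1.47 to 1.06, so that a difference inside this interval was not detectable. The lowest of the 7 GFP+ samples was replicate 2, which had the highest *Apoe*, *Clu*, *Apoc1*, *Lcat* and *Apod* of the 7.

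**Figure D3:**
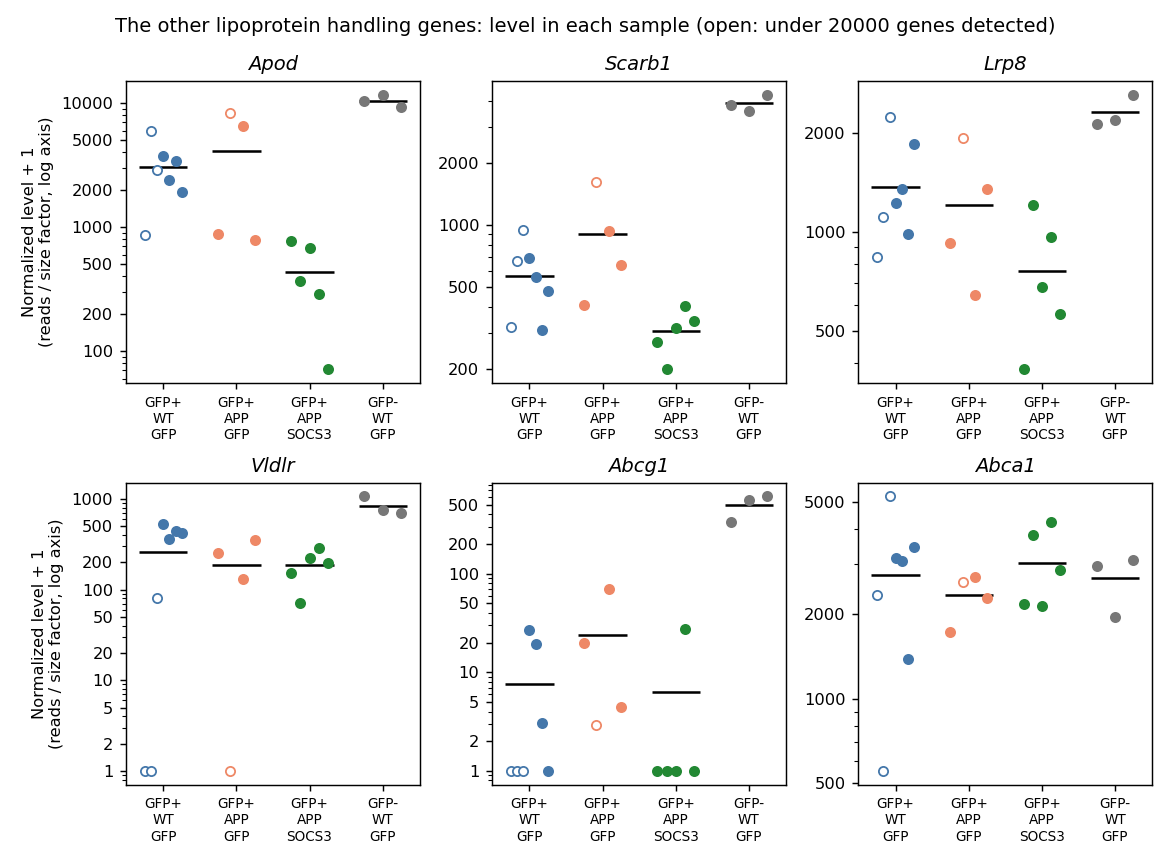
Normalized level + 1 (log axis) of *Apod*, *Scarb1*, *Lrp8*, *Vldlr*, *Abcg1* and *Abca1* in each sample by group, with black lines for group means and open points for the 4 samples with fewer than 20000 genes detected. *Apod* and *Scarb1* are lower in all 5 APP-SOCS3 than in all 4 APP-GFP samples, and 3 of the open points are at 0 for *Vldlr*.

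Other genes of the pathway were read from a list of 72 entries, of which 65 could be tested here. In GFP+ cells 16 were higher and 22 lower, against 9.25% and 33.5% of all genes. The highest was *Pla2g7*, a lipoprotein-associated phospholipase, at 117833 ± 16570 in GFP+ (SD, n = 7) and 7936 ± 4950 in GFP- cells (SD, n = 3), a log2 fold change of 4.08. *Apoc3* (3.87) and *Apoa1* (3.72), apolipoproteins made mostly by liver and gut, had low levels, with means of 91.1 and 61.2 in GFP+ cells and 4.93 and 2.32 in GFP- cells. *Cyp46a1*, which turns cholesterol into a hydroxylated form that leaves the brain, had a log2 fold change of 3.24. *Dab1*, the adaptor through which VLDLR and APOER2 signal, had one of 2.82.

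The genes of this list with the largest negative changes were *Abca9* (log2 fold change -8.51), a transporter, *Ch25h* (-7.44), a cholesterol hydroxylase of macrophages, *Lpl* (-6.52), lipoprotein lipase, *Rxrg* (-6.08), a retinoid X receptor, and *Mylip* (-6.05), a ligase that marks LDL receptors for degradation. Each was called in limma with an adjusted *p* between 0.00106 and 0.0301. Mean levels in GFP+ cells were 41.1 for *Abca9*, 6.89 for *Ch25h*, 55.1 for *Lpl*, 7.10 for *Rxrg* and 94.8 for *Mylip*. All 20 microglial, 16 endothelial, 11 mural and 9 oligodendrocyte precursor markers were lower in GFP+ cells as well, as were 8 of 13 neuronal markers (61.5%). Of 8 choroid plexus and ependymal markers 3 were lower (37.5%), near the 33.5% of all genes. Their sum was 653 to 86186 in WT-GFP GFP+ samples and 43194 to 118616 in GFP- samples. *Pdgfra*, of oligodendrocyte precursors, was at a mean of 99.2 in GFP+ and 3349 in GFP- cells, *Snap25*, a neuronal gene, at 183 and 758, and *Ttr*, of the choroid plexus, at 19676 and 75481. *Mbp*, a myelin gene, was at 1202 and 593. Of 9 oligodendrocyte markers tested 2 were higher and 3 lower (22.2% and 33.3%, against 9.25% and 33.5% of all genes). The authors had removed myelin from the cell suspensions before sorting, and the paper ascribes a lack of oligodendrocyte markers to that step.

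The effect of the APP genotype was addressed by comparing APP-GFP with WT-GFP astrocytes. None of the 10 genes was called, and 2.23% of the 22969 genes tested were (1.66% as higher and 0.570% as lower). At an unadjusted *p* under 0.05, limma, edgeR and DESeq2 each found 0 of the 10. *Apoe* was 843242, 1280773, 1384106 and 941961 in APP-GFP replicates 1 to 4, all inside the WT-GFP range, with a log2 fold change of 0.09. Its 95% CI of -0.41 to 0.60 corresponds to 0.75 to 1.52 times the WT-GFP level. *Clu* was 410212, 472152, 491624 and 385050, also inside the WT-GFP range, and its interval, -0.14 to 0.40, spans 0.91 to 1.32 times the WT-GFP level.

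For *Lcat* the APP-GFP replicates had 13015, 14948, 14577 and 9970, and the interval was 0.83 to 1.44 times the WT-GFP level. *Abca1* was 1727, 2606, 2697 and 2285, for an interval of 0.49 to 2.08 times. These APP-GFP values were inside the range of the 7 WT-GFP samples for both genes. *Apod* had 2 high and 2 low samples among APP-GFP astrocytes, with 872, 8266, 6593 and 779, and its interval, 0.34 to 2.59 times the WT-GFP level, was wide. *Scarb1* was 410, 1613, 935 and 637 (log2 fold change 0.58, 95% CI -0.30 to 1.47), and *Apoc1* was 151, 81.6, 163 and 251 (-0.10, 95% CI -1.37 to 1.18).

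*Lrp8* was 923, 1928, 641 and 1350 in APP-GFP astrocytes (log2 fold change -0.22, 95% CI -0.95 to 0.50). *Vldlr* was 256, 0, 131 and 355, with the 0 in the APP-GFP sample that had fewer than 20000 genes detected. Without the 4 such samples, *Vldlr* was the 1 gene called of the 10, as lower in APP-GFP astrocytes. Of all 23286 genes tested in that fit, 319 were called higher and 414 lower, against 382 and 131 over all samples. *Abcg1* was at 19.01, 1.90, 68.3 and 3.49, and these few reads gave an interval of -0.87 to 4.91 for the log2 fold change.

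Of the other pathway genes, 4 of 62 tested were called, all higher in APP-GFP astrocytes (6.45%, against 1.66% of all genes tested). They were *Lpl* (433 ± 280, SD, n = 4, against 55.1 ± 80.9, SD, n = 7), *Stab2*, a scavenger receptor of sinusoidal endothelium (289 ± 188, SD, n = 4, against 64.1 ± 91.8, SD, n = 7), *Rxrg* (79.5 ± 89.5, SD, n = 4, against 7.10 ± 12.6, SD, n = 7) and *Ch25h* (70.4 ± 76.9, SD, n = 4, against 6.89 ± 8.98, SD, n = 7). Each had an adjusted *p* of 0.999 in limma. Without the 4 samples with few genes detected, *Lpl* stayed called (log2 fold change 2.23), while *Ch25h*, *Rxrg* and *Stab2* did not. *Lpl* is abundant in microglia, and the 20 microglial markers summed to 21242 to 123885 in APP-GFP and 14579 to 54098 in WT-GFP astrocytes. All 20 had a positive change and 3 were called. Border macrophage markers moved the same way. All 7 of those tested had a positive change (median log2 fold change 2.31) and 1 was called, and the sum of the 8 was 201.4 to 566.4 in APP-GFP and 0 to 472.4 in WT-GFP astrocytes. The part of these cells in the results for *Lpl*, *Stab2*, *Rxrg* and *Ch25h* was not tested.

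The effect of SOCS3 in APP mice was addressed by comparing APP-SOCS3 with APP-GFP astrocytes. Of the 10 genes, 2 were called, *Apod* and *Scarb1*, both as lower, against 5.70% of the 22844 genes tested (3.37% as lower and 2.33% as higher). Neither passed an adjusted *p* of 0.05 in limma, where 0.00438% of all genes did, or in edgeR. Both did in DESeq2, where 208 of the 22844 genes passed. The comparison shares the APP-GFP samples with the one before.

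*Apod* was 771, 364, 672, 285 and 70.3 in APP-SOCS3 replicates 1 to 5, and all 5 were below the lowest APP-GFP sample (779). The groups met closely there, at 771 and 779. *Apod* was 7.5-fold lower, with a log2 fold change of -2.91 (95% CI -4.80 to -1.02, adjusted *p* = 0.616, limma). The exact permutation *p* was 0.00794, the smallest this design allows, and the adjusted *p* was 0.545 in edgeR and 0.0326 in DESeq2. Without APP-GFP replicate 2, the sample with few genes detected, the log2 fold change was -2.33 and still called.

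*Scarb1* was 269, 199, 315, 405 and 341 in the APP-SOCS3 replicates, and all 5 were below the lowest APP-GFP sample (410). It was 2.66-fold lower, with a log2 fold change of -1.41 (95% CI -2.24 to -0.58, adjusted *p* = 0.576, limma). The adjusted *p* was 0.525 in edgeR and 0.0174 in DESeq2, and the exact permutation *p* was again the smallest allowed, 0.00794. Without APP-GFP replicate 2 the log2 fold change was -1.07 and still called. Of all genes tested, 1.09% had all APP-SOCS3 samples under all APP-GFP samples.

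Genes of other cell types moved with *Apod* and *Scarb1*. Of 16 endothelial markers, 15 were called lower in APP-SOCS3 than in APP-GFP astrocytes, and the sum of the 16 was 1661 to 8367 in APP-SOCS3, 7399 to 39710 in APP-GFP and 4936 to 53108 in WT-GFP astrocytes. *Cldn5*, an endothelial tight junction gene, was at 785 ± 663 (SD, n = 5), 4597 ± 3326 (SD, n = 4) and 4401 ± 4415 (SD, n = 7). Of 11 mural markers 5 were called lower, although *Pdgfrb* was at 1360 ± 622 (SD, n = 5) in APP-SOCS3 and 1300 ± 570 (SD, n = 4) in APP-GFP astrocytes. Of 20 microglial markers 19 were called lower, with *Cx3cr1* at 275 ± 87.0 (SD, n = 5) against 820 ± 646 (SD, n = 4), and so were 6 of 8 border macrophage markers, with *Mrc1* at 13.8 ± 30.8 (SD, n = 5) against 110 ± 125 (SD, n = 4), and 3 of 9 fibroblast markers, with *Dcn* at 71.5 ± 77.5 (SD, n = 5) against 437 ± 339 (SD, n = 4). Also called lower were 3 of 9 oligodendrocyte precursor, 3 of 12 neuronal and 1 of 9 oligodendrocyte markers tested. The oligodendrocyte sum was 20857 in APP-GFP replicate 2, which had the highest *Apod* of its group (8266), against 6380 to 7117 in the other APP-GFP and 4174 to 6795 in the APP-SOCS3 samples. None of the 15 astrocyte and 8 choroid plexus and ependymal markers was called.

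Set against the endothelial sum of the same sample, *Apod* per 100 units lay between 4.23 and 24.3 in APP-SOCS3 astrocytes. It lay between 9.85 and 27.3 in those of APP-GFP mice, between 11.3 and 24.7 in those of WT-GFP mice, and between 3.71 and 6.75 in GFP- cells. The ranges of the GFP+ groups overlap. The APP-SOCS3 sample with the highest endothelial sum, replicate 1 (8367), also had the highest *Apod* of its group (771), and the APP-GFP samples nearest to it in endothelial sum, replicates 1 and 4 (8846 and 7399), had 872 and 779. Per 100 units of the mural sum (2486 to 4209 in APP-SOCS3 and 4359 to 21861 in APP-GFP samples), *Apod* lay between 2.83 and 20.1 with SOCS3 and between 12.7 and 37.8 without it. The medians were 9.88 and 27.3, against 12 and 15.7 per 100 units of the endothelial sum. APP-SOCS3 replicate 4, with the highest mural sum of its group (4209), had an *Apod* level of 285. The APP-GFP sample nearest to it in mural sum, replicate 1 (4359), had 872. *Scarb1* per 100 units of the endothelial sum lay between 3.22 and 20.5 with SOCS3 and between 3.87 and 8.61 without it. Its medians were 11.4 and 4.35. Per 100 units of the mural sum, *Scarb1* lay between 5.41 and 13.7 with SOCS3 and between 4.92 and 10.4 without it, with medians of 9.28 and 8.39. The part of these cells in both results was not tested.

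**Figure D4:**
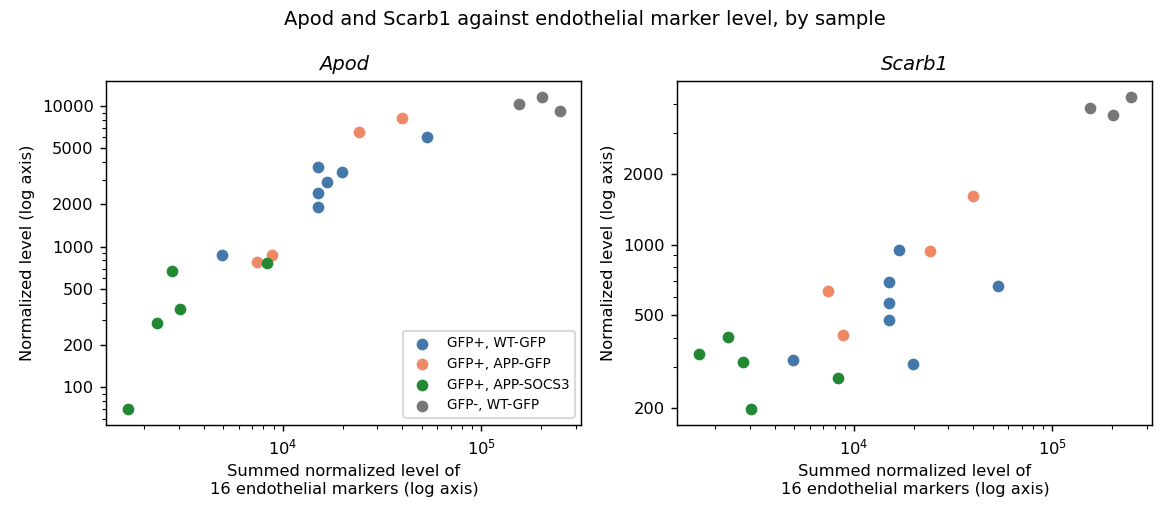
Normalized level of *Apod* (left) and *Scarb1* (right) against the summed level of 16 endothelial markers in each of the 19 samples, on log axes, with 1 point per sample coloured by group. Of the 5 APP-SOCS3 samples, 4 lie at endothelial sums of 1661 to 3025, under all other GFP+ samples, and the remaining one, at 8367, has an *Apod* level of 771, close to the 779 of the lowest APP-GFP sample.

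The genes whose levels were most like those of *Apod* over the 16 GFP+ samples were *Vtn* (Pearson *r* = 0.962), encoding vitronectin, *Ly6e* (*r* = 0.961), a surface protein, and the entry of *Fxyd5* and *Mir7050* (*r* = 0.957). They were picked out of 10653 genes whose mean was 100 or more, and the points share library and depth. *Vtn* is 1 of the 11 mural markers and so is part of the mural sum above. Its mean was 51644 in GFP- cells, 3369 in WT-GFP, 4626 in APP-GFP and 460 in APP-SOCS3 astrocytes. The genes most like *Apoe* were *Scand1* (*r* = 0.934), *Rwdd1* (*r* = 0.928) and the entry of *5730408K05Rik* and *Mir5136* (*r* = 0.928). Those most like *Clu* were *Mrpl40* (*r* = 0.892), *Rpl7a* (*r* = 0.888) and *Nudt16l1* (*r* = 0.875). Group means of *Scand1* in GFP+ cells were 403 (WT-GFP), 461 (APP-GFP) and 375 (APP-SOCS3).

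*Apoe* was 1288581, 854954, 1296072, 1076574 and 897695 in APP-SOCS3 replicates 1 to 5, all inside the range of WT-GFP astrocytes. Against APP-GFP its log2 fold change was -0.03, and the 95% CI spans 0.73 to 1.32 times the APP-GFP level. *Clu* was 527708, 443651, 515905, 446680 and 369206, with an interval of 0.84 to 1.29 times. The highest *Clu* of the 19 samples was in an APP-SOCS3 sample, and the 2 groups overlapped for both genes.

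*Lcat* was 17915, 14532, 19247, 15933 and 13057 in the APP-SOCS3 replicates, and these overlapped the APP-GFP values (log2 fold change 0.30, 95% CI -0.05 to 0.65). *Abca1* was 2167, 3820, 2130, 4236 and 2865, for a log2 fold change of 0.35 (95% CI -0.17 to 0.87). *Apoc1* was 171, 80.0, 190, 163 and 149 (log2 fold change -0.05, 95% CI -0.99 to 0.89). For each of these 3 genes the APP-SOCS3 and APP-GFP samples overlapped.

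*Lrp8* was 381, 1210, 677, 963 and 561 in APP-SOCS3 astrocytes (log2 fold change -0.67, 95% CI -1.52 to 0.18). It was called lower without APP-GFP replicate 3 (-0.93) or APP-SOCS3 replicate 2 (-0.87). *Vldlr* was 154, 69.8, 223, 288 and 194, and its log2 fold change of 1.52 (95% CI -1.70 to 4.74) turned to -0.44 without APP-GFP replicate 2. *Abcg1* was listed at 0 in 4 APP-SOCS3 samples and at 26.5 in replicate 4 (log2 fold change -2.58, 95% CI -5.65 to 0.50), and it was called lower without that replicate (-3.53).

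Of the other pathway genes, 2 of 59 tested were called higher and 4 lower in APP-SOCS3 than in APP-GFP astrocytes. These are 3.39% and 6.78%, against 2.33% and 3.37% of all genes tested, so the share of higher calls was near that of all genes. *Pltp*, the phospholipid transfer protein that remodels HDL, was at 4390 ± 1108 (SD, n = 5) against 11387 ± 4434 (SD, n = 4), a log2 fold change of -1.30 (adjusted *p* = 0.548, limma). *Lpl* (-3.94), *Stab1* (-3.63), a scavenger receptor of macrophages and sinusoids, and *Stab2* (-2.60) were lower, from means of 433, 402 and 289 in APP-GFP to 51.9, 48.4 and 45.0 in APP-SOCS3 astrocytes. Markers called lower in this comparison included 19 of 20 microglial, 6 of 8 border macrophage and 15 of 16 endothelial ones, and none of 15 astrocyte ones. The part of those other cells in the results for *Pltp*, *Lpl*, *Stab1* and *Stab2* was not tested. *Apoa2* (2.41), an HDL apolipoprotein, and *Abca8b* (3.08), a lipid transporter, were higher at means of 26.2 and 27.2 in APP-SOCS3 astrocytes against 5.12 and 3.55. The call of *Apoa2* was lost in 7 of the 9 fits that left out 1 sample.

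APP-SOCS3 astrocytes were also compared with WT-GFP astrocytes, which shares samples with both comparisons above. *Abcg1* was under the minimum level in both groups and was not tested. Of the 9 genes tested 3 were called, all lower (*Apod*, *Scarb1*, *Lrp8*), against 5.21% of the 22958 genes tested (2.02% as lower and 3.19% as higher). None passed an adjusted *p* of 0.05 in limma, where 0.0305% of all genes did, or in edgeR, with 4 genes at an unadjusted *p* under 0.05 in each. In DESeq2 1 (*Apod*) passed, among 181 of the 22958 genes. All 5 APP-SOCS3 samples had less *Apod* than the lowest WT-GFP sample (868), an order that 0.279% of genes tested had. *Apod* had a log2 fold change of -3.00 (95% CI -4.21 to -1.80, adjusted *p* = 0.103, limma), with an exact permutation *p* of 0.00126, the smallest allowed.

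*Scarb1* was 1.78-fold lower (log2 fold change -0.83, 95% CI -1.51 to -0.15, exact permutation *p* = 0.0253). *Lrp8* was 1.86-fold lower (-0.89, 95% CI -1.56 to -0.22, exact permutation *p* = 0.0227), and for both genes the samples of the 2 groups overlapped. With equal upper quartiles both calls were lost, at -0.58 for *Scarb1* and -0.64 for *Lrp8*, and that of *Scarb1* was also lost without APP-SOCS3 replicate 2 (-0.68). Under that scaling the median of all genes moved from 0.19 to 0.42, and genes called went from 733 higher and 464 lower to 1115 higher and 304 lower, against 441 and 762 with edgeR and 340 and 824 with DESeq2. Of the 16 endothelial markers 12 were called lower in this comparison, and of the 20 microglial markers 13.

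*Lcat* had a mean of 16137 ± 2497 (SD, n = 5) in APP-SOCS3 and 12128 ± 2852 (SD, n = 7) in WT-GFP astrocytes, a 1.35-fold higher level (log2 fold change 0.43, 95% CI 0.08 to 0.78, adjusted *p* = 0.757 in limma, exact permutation *p* = 0.0328). This was below the fold threshold of 1.5, and it passed both thresholds with equal upper quartiles (0.68). *Apoe* per 100 units of *Lcat* lay between 5883 and 7193 in APP-SOCS3 astrocytes and between 6568 and 10543 in those of WT-GFP mice, and these overlap.

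*Vldlr* had a log2 fold change of 1.49 (95% CI -2.05 to 5.02) over all samples. It was -1.36 without the 3 WT-GFP samples with few genes detected, when 4 genes of the set were called. Of all 22981 genes tested in that fit, 410 were called higher and 1239 lower, against 733 and 464 over all samples. The median log2 fold change over all genes was then -0.01, against 0.19. All 5 APP-SOCS3 values of *Vldlr* (69.8 to 288) were below those of WT-GFP replicates 4 to 7 (366 to 525). *Apoe* (0.06, 95% CI -0.39 to 0.51), *Clu* (0.19, 95% CI -0.08 to 0.46), *Apoc1* (-0.15, 95% CI -1.22 to 0.93) and *Abca1* (0.36, 95% CI -0.60 to 1.32) were not called. Of 63 other pathway genes tested, *Pltp* was lower (log2 fold change -1.22, adjusted *p* = 0.335) and *Rxrg* higher (2.92, adjusted *p* = 0.873) in limma, the latter with a call that was lost in 9 of the 12 fits that left out 1 sample.

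**Figure D5:**
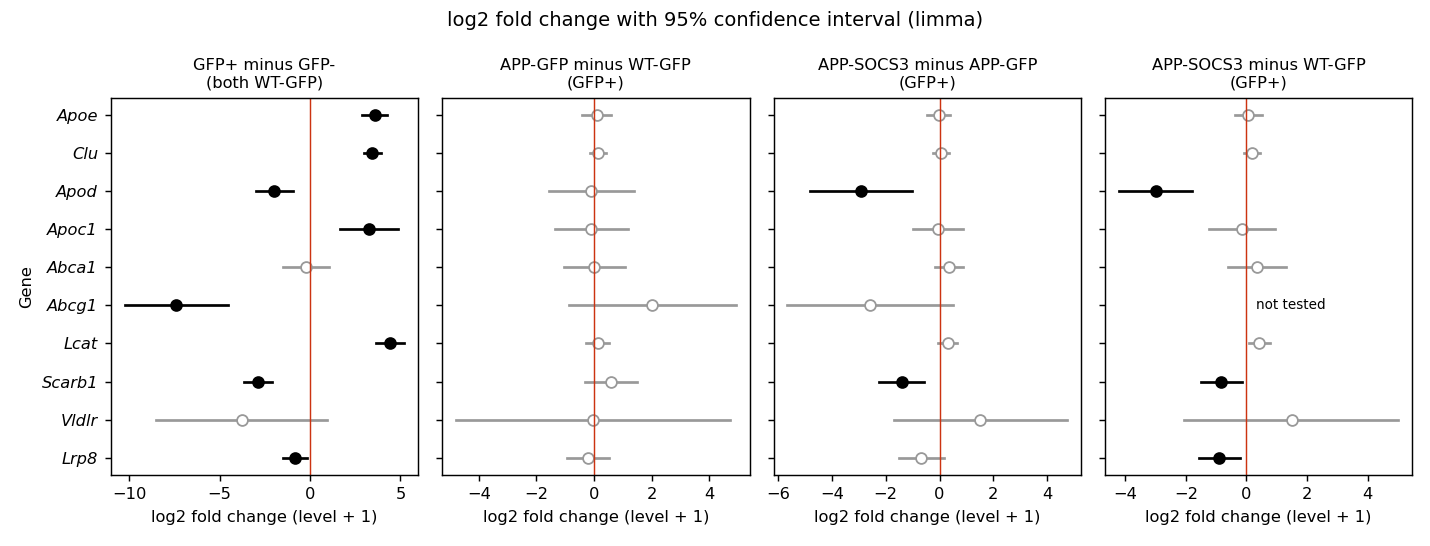
The log2 fold change (on level + 1) of the 10 genes in the 4 comparisons from limma, with points for the estimate and bars for the 95% confidence interval, and black filled points for called genes. GFP+ against GFP- cells has 8 called genes, APP-GFP against WT-GFP none, APP-SOCS3 against APP-GFP *Apod* and *Scarb1*, and APP-SOCS3 against WT-GFP *Apod*, *Scarb1* and *Lrp8*. The 3 comparisons of GFP+ cells share samples.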

How the data were processed

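RNAseq of 19 samples was used, grouped by their labels. The full genotype of the APP mice is not reported here. The authors amplified cDNA of low RNA inputs by PCR, mapped reads to mm10 with STAR 2.4.0 (also named in the submitters' processing notes), counted reads on constitutive regions of FAST DB genes and normalized the counts with DESeq2. Strand use and the treatment of reads matching several genes are not given in the sources used here. What the authors deposited is, for every gene, a normalized signal, namely reads over the size factor of the sample. All values (100%, tolerance 0.01 reads) were multiples of the smallest step of their sample, so whole reads were recovered. Depth was 19331876 to 32621917 reads on genes, without molecular identifiers, so errors of counts cover counting alone.

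With limma 3.58.1 (R 4.3.3), log2(level + 1) was compared for genes whose mean reached 10 in one group or both, between 2 groups, with a mean-variance trend, and genes were called as in the study's methods (*p* at most 0.05, fold at least 1.5). Benjamini-Hochberg adjustment is over all genes tested. Permutation tests are exact and 2-sided on mean log2 levels. edgeR 4.0.16 (quasi-likelihood) and DESeq2 1.42.0 were run on whole reads as alternatives, beside other pseudocounts, minimum levels and scalings, a replicate block and the omission of single samples. The steps were tested on simulated reads with known changes. The 10 genes and all lists were chosen with earlier results of these data known, and leaving out samples with fewer than 20000 genes detected was added after the data were seen. Named in the text are the 10 genes, pathway genes called between GFP+ groups, the 5 called with the largest change in each direction between GFP+ and GFP- cells, the 3 genes most like *Apoe*, *Clu* and *Apod*, the first gene of marker lists, *Socs3* and *App*. Both hippocampi of a mouse were processed independently, and the labels do not say whether samples share a mouse, so *p*-values may be too small and may measure technical spread in part.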

Additional observations from a re-analysis of the deposited data

Results flagged for a closer look

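*Abcg1* in APP-SOCS3 astrocytes was at 26.46 in replicate 4 and at 0 in the other 4 samples, so its highest value stood apart from the rest of the group. Of the 30 groups of values examined in this way, 1 stood out. With the other samples at 0, any value above 0 would have stood out, so its standing apart adds nothing to the values. The limit used is one that chance passes in about 1 in 20 groups of normally spread values, which these are not.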

How the results depend on the processing

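*Apoe*, *Clu*, *Apoc1* and *Lcat* kept their direction and call between GFP+ and GFP- cells under every alternative run. When single samples were left out, 7 to 8 of the 10 genes were called between GFP+ and GFP- cells, 0 in APP-GFP against WT-GFP, 2 to 3 in APP-SOCS3 against APP-GFP and 2 to 3 in APP-SOCS3 against WT-GFP. At an adjusted *p* under 0.05 in limma, 0 were called in either comparison of APP-SOCS3, and 1 was called against WT-GFP at a fold of at least 2. At that fold 1060 of all 22958 genes tested were called. Without samples with fewer than 20000 genes detected, 1 (*Vldlr*) was called in APP-GFP against WT-GFP, where 733 of all 23286 genes tested were. Over all genes, calls in the 4 comparisons numbered 11419, 513, 1301 and 1197. They were 6709, 123, 650 and 441 at a minimum level of 100, and 1, 1 and 7 at an adjusted *p* under 0.05 between GFP+ groups. In APP-GFP against WT-GFP they were 817 with no minimum and 991 with all 19 samples in one fit. Leaving out single samples gave 8838 to 11679, 393 to 677, 1052 to 1836 and 904 to 1435. Higher and lower calls between GFP+ and GFP- cells were 2471 and 8948, against 3323 and 5265 with edgeR and 3173 and 5784 with DESeq2. In APP-GFP against WT-GFP they were 382 and 131, against 402 and 52 with equal upper quartiles, 412 and 247 with edgeR and 205 and 325 with DESeq2.

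The genes whose log2 fold change changed sign were not called in the comparison concerned. With edgeR and DESeq2, *Abca1* was at 0.31 and 0.08 between GFP+ and GFP- cells and at -0.21 and -0.24 in APP-GFP against WT-GFP, *Apod* at 0.46 and 0.45 in the latter, and *Vldlr* at -0.48 and -0.49 in APP-SOCS3 against WT-GFP. With equal upper quartiles, *Apod*, *Apoc1* and *Vldlr* were at 0.02, 0.02 and 0.13 in APP-GFP against WT-GFP, *Apoe* and *Apoc1* at 0.10 and 0.08 in APP-SOCS3 against APP-GFP, and *Apoc1* at 0.10 in APP-SOCS3 against WT-GFP. With a pseudocount of 0.1 *Vldlr* was at 0.08 in APP-GFP against WT-GFP. Without samples with fewer than 20000 genes detected, *Apoc1* and *Abca1* were at 0.71 and -0.25 in APP-GFP against WT-GFP, *Apoe* and *Vldlr* at 0.05 and -0.44 in APP-SOCS3 against APP-GFP, and *Apoc1* and *Vldlr* at 0.37 and -1.36 in APP-SOCS3 against WT-GFP, where *Vldlr* was then called. Leaving out single samples, *Abca1* ranged from -0.42 to 0.14 between GFP+ and GFP- cells. In APP-GFP against WT-GFP, *Apoe* ranged from -0.02 to 0.23, *Apod* from -0.68 to 0.46, *Apoc1* from -0.34 to 0.20, *Abca1* from -0.33 to 0.21, *Vldlr* from -1.02 to 1.93 and *Lrp8* from -0.49 to 0.04. In APP-SOCS3 against APP-GFP, *Apoe* ranged from -0.15 to 0.08, *Apoc1* from -0.34 to 0.19 and *Vldlr* from -0.44 to 2.39. In APP-SOCS3 against WT-GFP, *Apoe* ranged from -0.02 to 0.20 and *Apoc1* from -0.37 to 0.10. The cause of these changes was not tested.

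The replicate numbers were not taken to pair samples, since not every same-numbered pair correlated above 0.1 in any of the 4 comparisons. This check cannot decide pairing, because the cut is arbitrary and the deviations are from means of as few as 3 samples. GFP+ and GFP- samples of WT-GFP mice may share a mouse. Same-numbered samples were at -0.06 to 0.08, 0.01 to 0.21 (3 of 4 pairs over 0.1), -0.10 to 0.11 and -0.19 to 0.10, and differently numbered ones at -0.19 to 0.12, -0.27 to 0.27, -0.19 to 0.20 and -0.23 to 0.22. In fits with a replicate block, 8, 0, 2 and 3 of the 10 genes were called, with *Abcg1* not tested in the last. Over all genes these fits called 10999 of 26709, 663 of 22969, 1132 of 22844 and 1433 of 22958. Under the block *Lrp8* lost its call between GFP+ and GFP- cells (-0.85) and *Vldlr* gained one (-7.58), *Apoe* was at -0.04 in APP-GFP against WT-GFP and 0.03 in APP-SOCS3 against APP-GFP, and *Vldlr* was at 2.04 in APP-GFP against WT-GFP. Low read numbers, as for *Abcg1*, and values at 0 in samples with few genes detected, as for *Vldlr*, limit what could be detected for these genes.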
